A study of Mus musculus with 128 samples.

Results

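The 10 astrocyte genes described here were followed in the brain of ageing mice, out of the 55285 gene symbols that the Brain table lists. They were chosen by name: 4 genes known to increase in reactive astrocytes (Gfap, Serpina3n, Vim and Osmr) and 6 genes of the everyday work of astrocytes, called homeostatic here (Aqp4, S100b, Aldh1l1, Slc1a2, Slc1a3 and Gja1). The rule uses no measured value, though it was written with earlier results of these data known, and all 10 members passed the filter on low values in Brain. The study measured messenger RNA in 8 tissues of male mice, wild type and untreated, of the strain C57BL/6J, aged 6, 15, 24 and 30 months, with 4 libraries per tissue and age. The Brain libraries hold 10.1 to 36.0 M reads, and those of all tissues 7.65 to 82.8 M. The 16 Brain libraries carry the tissue label Brain with no region, and serve the comparisons of 15, 24 and 30 months with 6 months. Serpina3n, Osmr and Vim are also given in Aorta, Heart, Kidney, Liver, Lung, Muscle (labelled gastrocnemius) and Skin. The Aorta records give an age only in their titles and neither sex nor strain. The labels do not say whether replicates are separate animals, so p-values measure the spread between these libraries, which may be technical.

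Astrocytes are glial cells that take up glutamate and potassium from around synapses, couple to each other through gap junctions and line blood vessels with their endfeet. When brain tissue is injured, inflamed or aged, astrocytes become reactive: they make more of the intermediate filament proteins GFAP and vimentin and secrete the serine protease inhibitor that Serpina3n encodes. Osmr encodes the oncostatin M receptor, which signals through JAK kinases to the transcription factor STAT3, a known driver of Gfap transcription.

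The promoters of 3 members are shown because Gfap and Serpina3n are the reactive members whose levels varied most alike across the Brain libraries, while Slc1a3 is a homeostatic member that shares a STAT-type motif with Gfap. Each sequence is RefSeq's on GRCm38.p6, runs from 250 bases before to 50 bases after the annotated start and is written 5′ to 3′ along the gene's strand. The authors' values rest on GRCm39, so these coordinates belong to the RefSeq table and not to their files. Capitals mark a match to TTCNNNGAA, the palindromic core that STAT factors bind, searched on both strands.
Gfap promoter, chr11:102897151-102897450, minus strand: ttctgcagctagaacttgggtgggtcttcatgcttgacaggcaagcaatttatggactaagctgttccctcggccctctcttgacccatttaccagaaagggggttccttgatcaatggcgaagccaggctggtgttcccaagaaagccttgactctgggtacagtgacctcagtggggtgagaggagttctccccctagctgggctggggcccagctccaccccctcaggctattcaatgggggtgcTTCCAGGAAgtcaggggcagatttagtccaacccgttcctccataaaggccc
Serpina3n promoter, chr12:104406458-104406757, plus strand: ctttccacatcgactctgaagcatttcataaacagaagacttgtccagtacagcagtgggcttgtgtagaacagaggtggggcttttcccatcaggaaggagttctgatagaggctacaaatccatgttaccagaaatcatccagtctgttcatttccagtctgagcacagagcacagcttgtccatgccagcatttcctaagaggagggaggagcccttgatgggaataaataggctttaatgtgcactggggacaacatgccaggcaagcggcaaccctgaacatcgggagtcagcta
Slc1a3 promoter, chr15:8710758-8711057, minus strand: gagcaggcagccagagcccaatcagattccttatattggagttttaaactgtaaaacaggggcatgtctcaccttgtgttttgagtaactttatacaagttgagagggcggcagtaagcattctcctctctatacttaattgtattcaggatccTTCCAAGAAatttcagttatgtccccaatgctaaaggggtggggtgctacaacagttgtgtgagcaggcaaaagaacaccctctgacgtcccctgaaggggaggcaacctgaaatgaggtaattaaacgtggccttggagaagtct

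The promoters of 1 chromosome were left out of RefSeq's promoter table before the search. What remained was matched for 9 of the 10 members, not for Aqp4. TTCNNNGAA occurred in 2 of the 9, as TTCCAGGAA in Gfap with its first base at -2 from the start and as TTCCAAGAA in Slc1a3 at -96. Of the 32851 mouse promoters that remained, of the same length, 8.3% hold a match. TGANTCA, the core that AP-1 factors bind, also on both strands, occurred in 2 of the 9, Osmr and Gja1, against 7.81% of the same promoters. No match of 1 motif overlapped a match of the other. Each motif was thus found in 1 reactive and 1 homeostatic member, and the Serpina3n window holds neither.

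At 30 months all 4 reactive members were higher in Brain than at 6 months, and none of the 6 homeostatic members passed the test in either direction (1 had an unadjusted p under 0.05, and edgeR and DESeq2 also called 0). Changes are log2 fold changes on the scale log2(normalised reads + 1) ± SE, with n = 4 libraries per age. Adjusted p stands for the two-sided limma-trend test with Benjamini-Hochberg adjustment across all 16883 genes tested in Brain, with 0.05 as the threshold for the words rose and fell. Of all genes tested, 7.2% were called at 30 months, 3.23% of them as higher and 3.97% as lower. The median log2 fold change was 1.21 over the reactive members, -0.012 over the homeostatic members and 0.0034 over all genes tested. Brain RNA comes from mixed cells, so fewer cells of a type and less RNA per cell cannot be told apart, nor more cells and more RNA per cell.

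**Figure D1:**
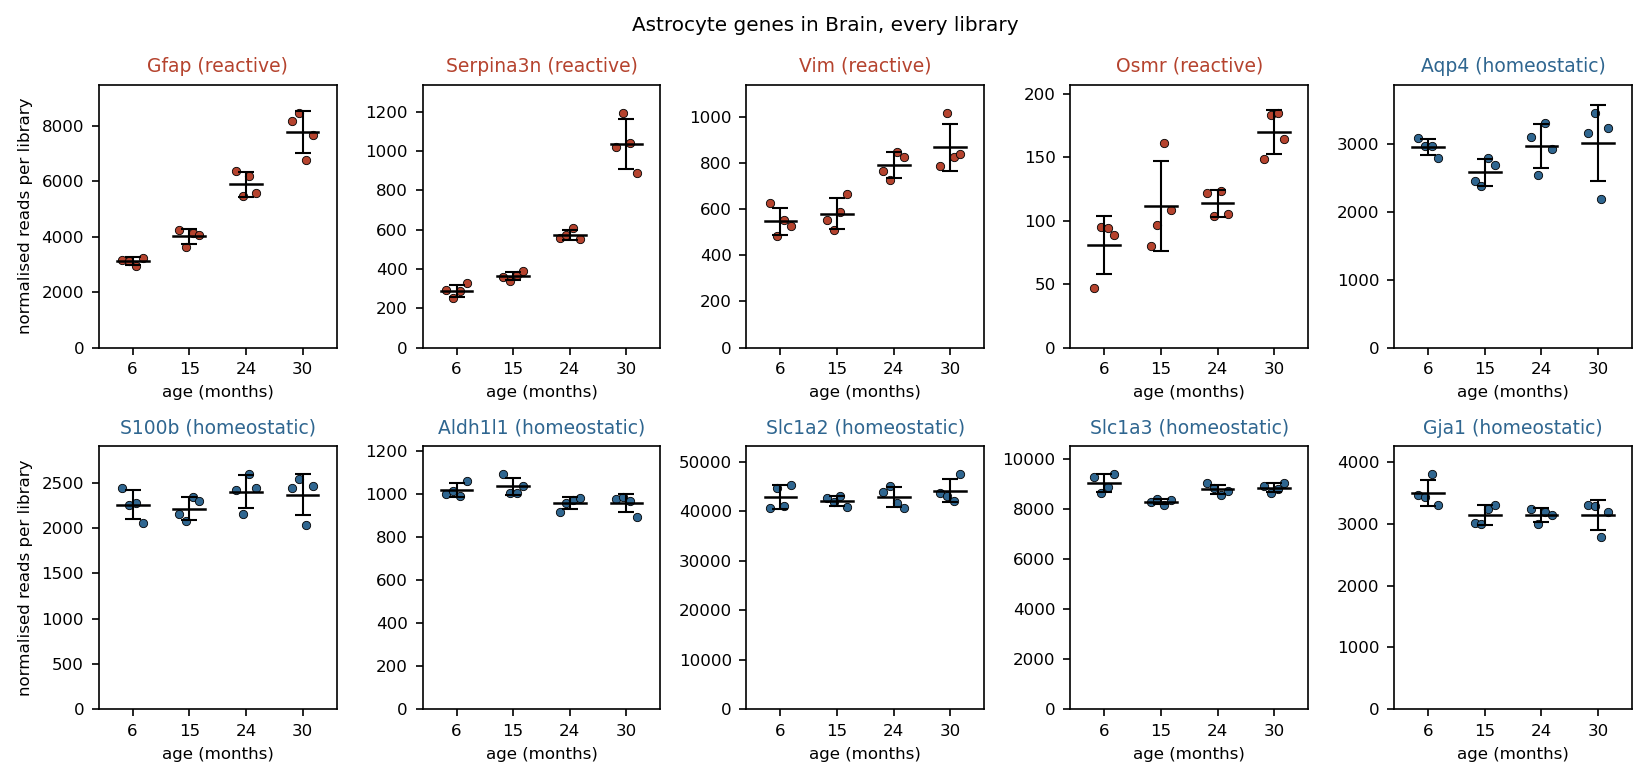
Normalised reads of the 10 members in each of the 16 Brain libraries (y axis, from 0) by age in months (x axis); points are libraries, the wide line is the mean and the bars are ± SD, n = 4. The reactive genes (red) stand higher at 30 months than at 6 in every library, Gfap at 6766 to 8464 against 2926 to 3238, while of the homeostatic genes (blue) only Aldh1l1 has its 30-month libraries all below those of 6 months, and none has them all above.

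Gfap encodes the main intermediate filament of mature astrocytes. Its 4 libraries held 3169, 3124, 2926 and 3238 normalised reads at 6 months and 4228, 3625, 4139.7 and 4045 at 15 months. At 24 months they held 6376, 5456, 6166 and 5570.0, and at 30 months 8177, 8464, 6766 and 7671. Every library of each older age lay above every 6-month library, and the 15-, 24- and 30-month ranges did not overlap with each other. A lack of overlap with 6 months, in either direction, held for 4.09% of all genes tested at 15 months. It held for 7.11% at 24 months and for 12.7% at 30. The same shares stand beside the ranges of the other members below. Gfap rose 2.49-fold in the mean from 6 to 30 months, a log2 fold change of 1.31 ± 0.066 (adjusted p = 9.08e-11). At 24 months it had risen by 0.92 ± 0.066 (adjusted p = 1.06e-07). At 15 months the difference of 0.36 ± 0.066 missed the threshold (adjusted p = 0.0757). Without replicate 2 of 15 months, the lowest of its age, it was 0.41 and passed (adjusted p = 0.0379).

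Serpina3n, the secreted protease inhibitor, changed most of the 10 members on the log scale at 30 months. It was measured at 292, 252, 290.0 and 327 normalised reads at 6 months, 361, 341, 368 and 389 at 15, 556, 574, 609 and 552 at 24 and 1021, 1196, 1042 and 888 at 30. The 4 ages formed 4 separate ranges, in order of age. The mean at 30 months was 3.57 times that at 6, and Serpina3n rose by 1.83 ± 0.085 (adjusted p = 2.85e-11). The rise was 0.98 ± 0.085 at 24 months (adjusted p = 1.72e-06), and the 15-month difference of 0.33 ± 0.085 was not called (adjusted p = 0.204). Ranked by log2 fold change from the highest, Serpina3n stood at place 62 of the 16883 genes at 30 months, Osmr at 196 and Vim at 554.

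Vim encodes vimentin, an intermediate filament that endothelial, mural and fibroblast-like cells of the brain also make. Its values were 627, 486, 552 and 528 at 6 months and 554, 510.1, 589.7 and 668 at 15, which overlap. They were 767, 726, 850.0 and 827 at 24 months and 787, 1019, 827 and 841 at 30, each above all 6-month libraries. Vim rose by 0.53 ± 0.093 at 24 months (adjusted p = 0.00546) and by 0.66 ± 0.093 at 30 (adjusted p = 2.09e-04). At 15 months the difference was 0.082 ± 0.093 (adjusted p = 0.935).

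Osmr, the receptor, was the least abundant member. It held 47.2, 94.7, 94.3 and 88.8 normalised reads at 6 months, 80.3, 96.3, 162 and 108 at 15, 122, 104, 123 and 105 at 24 and 149, 183, 185 and 164 at 30. The 24- and 30-month libraries lay above all 6-month libraries, and the 15-month libraries overlapped with them. Osmr rose by 1.11 ± 0.20 at 30 months (adjusted p = 0.00226). The differences of 0.46 ± 0.20 at 15 months (adjusted p = 0.673) and 0.53 ± 0.20 at 24 months (adjusted p = 0.335) were not called. Replicate 1 of 6 months, at 47.2, stood apart from the other 3 (88.8 to 94.7). Without that library the change was 0.87 at 30 months (adjusted p = 0.00559) and 0.29 at 24 months. The same library had the highest summed level of the 8 markers of Bergmann glia and cerebellum, with 5442, 3068, 2479 and 2008 normalised reads in replicates 1 to 4 of 6 months. The part of that in the Osmr value was not tested.

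By age, 0 of the 10 members were called at 15 months (0.0237% of all genes, 4 in number), 3 at 24 months (0.634% of all genes) and 4 at 30 months. At 15 months limma-trend gave an unadjusted p under 0.05 to 5 of the 10 members. edgeR's quasi-likelihood test also called 0, and DESeq2 called Gfap alone, at an adjusted p of 0.00117. Between neighbouring ages, Gfap rose by 0.55 ± 0.066 from 15 to 24 months (adjusted p = 3.63e-04), Serpina3n by 0.65 ± 0.085 (adjusted p = 8.56e-04) and Vim by 0.45 ± 0.093 (adjusted p = 0.0265), in a step where 0.592% of genes were called. The Vim call was lost without any 1 of replicates 1, 2 and 3 of 15 months or replicates 1, 3 and 4 of 24 months, at differences of 0.39 to 0.47. From 24 to 30 months, where 0.308% of genes were called, Serpina3n rose by 0.85 ± 0.085 (adjusted p = 3.61e-05) and Gfap by 0.40 ± 0.066 (adjusted p = 0.0102). The Gfap call of that step was lost without replicate 2 or 4 of 24 months (0.36 and 0.37) and in a fit of those 2 ages alone (adjusted p = 0.0573). Vim over the last step was 0.13 ± 0.093 (adjusted p = 0.756), and Osmr 0.58 ± 0.20 (adjusted p = 0.328).

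**Figure D2:**
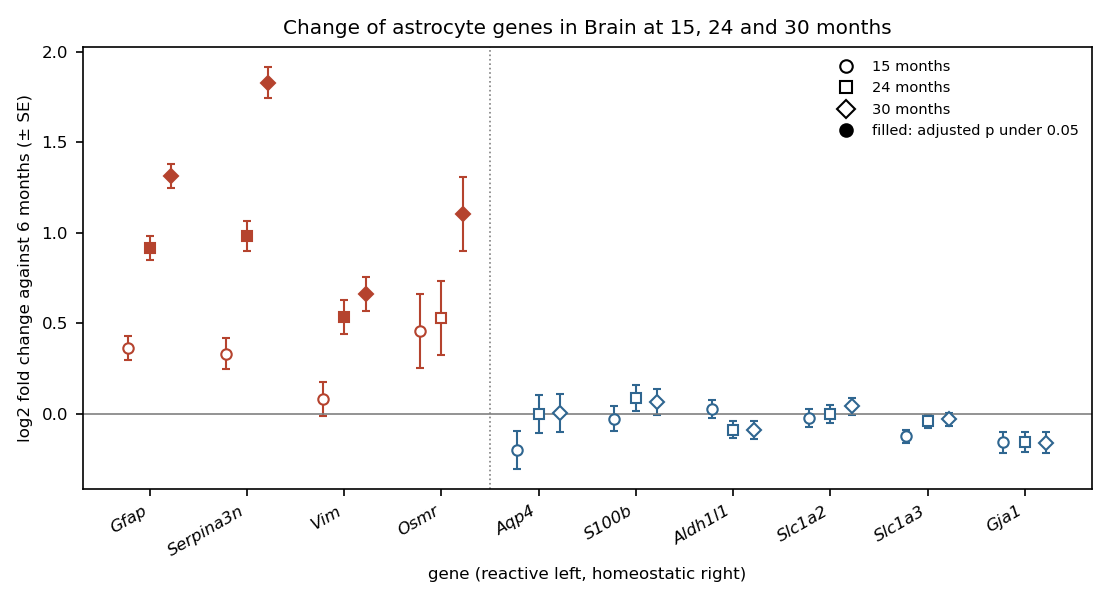
Log2 fold change against 6 months (y axis, ± SE, n = 4 libraries per age) of each member in Brain at 15, 24 and 30 months; filled symbols have an adjusted p under 0.05. The 4 reactive genes on the left reach 0.66 (Vim) to 1.83 (Serpina3n) at 30 months, and the 6 homeostatic genes on the right lie between -0.16 (Gja1) and 0.067 (S100b).

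The homeostatic members include the transporters that clear glutamate. Slc1a2 (GLT-1), the main glutamate transporter of the forebrain, had 40526, 44632, 40927 and 45186 normalised reads at 6 months and 43709, 43091, 42068 and 47446 at 30, in overlapping ranges. Its 30-month difference was 0.042 ± 0.049 (adjusted p = 0.680). Slc1a3 (GLAST), the glutamate transporter most abundant in the cerebellum, had 9295, 8658, 8878 and 9405 at 6 months and 8938, 8645, 8827 and 9071 at 30, with a difference of -0.030 ± 0.036 (adjusted p = 0.696). At 15 months all 4 Slc1a3 libraries (8156 to 8407) lay below all 6-month libraries, but the difference of -0.12 ± 0.036 was not called (adjusted p = 0.300). Such a lack of overlap at 15 months, in either direction, held for 4.09% of all genes tested.

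Aqp4 encodes the water channel of astrocyte endfeet. It was at 3093, 2967, 2966 and 2799 normalised reads at 6 months, 2453, 2384, 2797 and 2693 at 15, 3108, 2541, 3306 and 2929.7 at 24 and 3162, 3459, 2186 and 3231 at 30. The 15-month libraries all lay below the 6-month ones, and the later ages overlapped with them. The differences were -0.20 ± 0.10 at 15 months (adjusted p = 0.766) and 0.0051 ± 0.10 at 30 (adjusted p = 0.987). Gja1, which encodes the gap junction protein connexin 43, was at 3469.7, 3442, 3805 and 3302 at 6 months and 3309, 3289.7, 2781 and 3193 at 30, again overlapping. Its 30-month difference of -0.16 ± 0.057 was the lowest of the 10 members and missed the threshold (adjusted p = 0.102). At 24 months the Gja1 libraries (2991 to 3241) lay below all 6-month libraries, with a difference of -0.16 ± 0.057 (adjusted p = 0.296).

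S100b encodes a calcium-binding protein of astrocytes, and of some oligodendrocytes. Its libraries ran from 2057 to 2441 normalised reads at 6 months and from 2030.1 to 2543 at 30, with a difference of 0.067 ± 0.070 (adjusted p = 0.643). Aldh1l1, a folate enzyme used as a marker of astrocytes as a whole, had 1002, 1014, 989 and 1062 at 6 months and 978, 985, 969.5 and 895 at 30. All 4 libraries at 24 and at 30 months lay below all 6-month libraries. Yet the difference at 30 months was small, -0.088 ± 0.049, and was not called (adjusted p = 0.324). A lack of overlap held for 7.11% of all genes at 24 months and for 12.7% at 30. The SE of a homeostatic member's difference ran from 0.036 (Slc1a3) to 0.10 (Aqp4), so Aqp4 was measured least precisely among them.

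The reactive members were also set against Aldh1l1 within the same library, since a ratio of 2 genes in 1 library does not depend on how that library was scaled. The log2 ratio of Gfap to Aldh1l1 was 1.61 ± 0.040 (SD, n = 4) at 6 months and 3.02 ± 0.14 at 30. For Serpina3n it was -1.81 ± 0.13 and 0.11 ± 0.12, so that Serpina3n went from far below Aldh1l1 to about its read level. The ratios increased by 1.92 for Serpina3n, 1.40 for Gfap, 1.19 for Osmr and 0.75 for Vim. For each of the 4 ratios all 30-month libraries lay above all 6-month libraries. The two-sided exact permutation p was 0.0286, also after Benjamini-Hochberg adjustment over the 4 ratios, and is the smallest that 4 against 4 libraries allow. With Slc1a3 or Slc1a2 in place of Aldh1l1 the increases ran from 0.62 (Vim to Slc1a2) to 1.86 (Serpina3n to Slc1a3), at the same p.

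**Figure D3:**
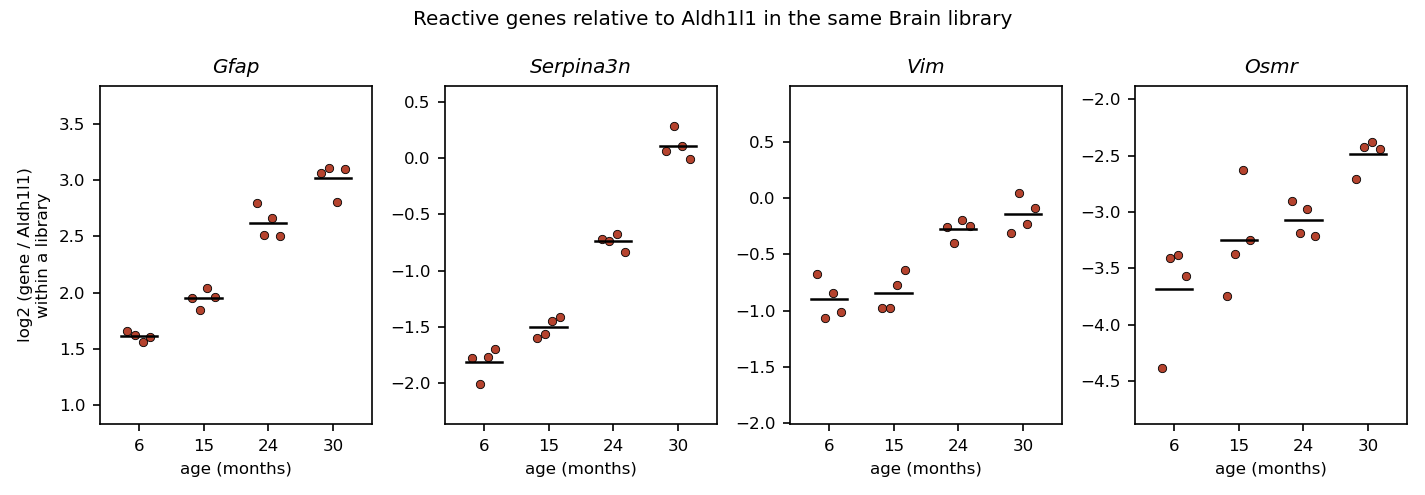
Log2 ratio of each reactive gene to Aldh1l1 within a library, on log2(normalised reads + 1) (y axis, the same span of 3 log2 units in each panel), by age in months (x axis); points are the 16 Brain libraries and lines are means of 4. All 4 ratios stand higher at 30 months than at 6 in every library, by 0.75 (Vim) to 1.92 (Serpina3n) in the mean.

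Per kilobase of exon, the order of the members changed with age. The levels are normalised reads per kilobase of the union of a gene's exons in GENCODE M21 on GRCm38, which may differ from the authors' gene models. At 6 months the order from the top was Slc1a2 (3260.3 ± 185, mean ± SD, n = 4), S100b (1521 ± 106), Slc1a3 (1061 ± 41.0) and Gfap (738 ± 31.8). Aqp4 (474 ± 19.4), Gja1 (342 ± 20.8) and Aldh1l1 (225 ± 7.10) followed, then Serpina3n (141 ± 14.9), Vim (116 ± 12.5) and Osmr (6.71 ± 1.89). At 6 months the ranges of neighbours overlapped only for Serpina3n and Vim. At 30 months Gfap (1842 ± 177) stood at the second place, with a range that overlapped that of S100b (1596 ± 155). Serpina3n (502 ± 61.2) had moved from the eighth place to the fifth, where its range overlapped that of Aqp4 (483 ± 90.4). Vim (183 ± 21.6) and Osmr (14.1 ± 1.43) kept the last places, and Vim then overlapped with Aldh1l1 (212 ± 9.23).

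Across the 16 Brain libraries the reactive members varied together. Pearson's r on log2(normalised reads + 1) was 0.966 between Gfap and Serpina3n, 0.905 between Gfap and Vim, 0.747 between Gfap and Osmr and 0.606 between Vim and Osmr. Among the homeostatic members the highest r was 0.887, between Aqp4 and S100b, followed by 0.637 between Aqp4 and Gja1. The points share the ages, the libraries and their depth, and these correlations are descriptions with no test. Replicate 3 of 30 months held the lowest Gfap, Aqp4, S100b and Gja1 of its age. It also had the lowest median rank correlation with the other Brain libraries, 0.9899, where the rest ran from 0.9916 to 0.9939, and the highest cerebellar marker sum of its age, 3539 against 2214 to 2486. Without that library the change at 30 months was 1.38 for Gfap, 0.15 for Aqp4, 0.14 for S100b and -0.10 for Gja1, and none of the last 3 was called.

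The genes most like Gfap across the 16 libraries, by Pearson's r among 13203 genes with a mean of 50 or more reads, were C4b (0.983), Mpeg1 (0.976), Ctss (0.968), Serpina3n (0.966) and Mr1 (0.952). C4b encodes a complement component, Mpeg1 a pore-forming protein of macrophages, Ctss the protease cathepsin S and Mr1 an antigen-presenting molecule. For Serpina3n they were Gfap (0.966), Mpeg1 (0.960), C4b (0.957), Ctss (0.944) and Rasgrf1 (0.938). For Slc1a2 they included Atp8a1 (0.852), Adam22 (0.828), Cadm2 (0.815) and Sptbn1 (0.793), none of which was called at 30 months. Mpeg1, Ctss, C4b, Mr1 and Rasgrf1 all rose at 30 months, by 0.26 (Rasgrf1) to 2.77 (C4b). They were picked for likeness to Gfap or Serpina3n over these same libraries, so their rise is no separate support.

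Other genes known from reactive astrocytes rose in part. Of 36 listed genes 32 were tested at 30 months: 15 rose, 0 fell, 17 did not pass, 5 of the 32 differences were negative (Nes, at -0.36, was the lowest), and the median log2 fold change was 0.58, beside 3.23% of all genes called higher. C4b was at 521 ± 23.9 normalised reads at 6 months and 3554 ± 346 at 30 (log2 fold change 2.77 ± 0.065, adjusted p = 1.14e-16). The class I antigen-presenting gene H2-D1 was at 714 ± 116 normalised reads at 6 months and 1449 ± 174 at 30 (log2 fold change 1.02 ± 0.10, adjusted p = 4.48e-06), and the central complement gene C3 at 26.5 ± 12.9 normalised reads at 6 months and 138 ± 28.1 at 30 (log2 fold change 2.42 ± 0.26, adjusted p = 1.40e-05). The other 12 that rose were Ggta1, Cp, Psmb8, Gbp2, Serping1, Lcn2, Cd44, Iigp1, Srgn, Aspg, H2-T23 and S100a6, by 0.41 ± 0.12 (H2-T23) to 3.67 ± 0.88 (Lcn2). At 24 months 4 of the 32 had risen, beside 0.557% of all genes called higher, and at 15 months 1, C4b, beside 0.0237%. The 4 genes called at 15 months in Brain over all genes, named after their values were seen, were C4b, Nlrp5-ps, Lyz2 and Cd74. Without replicate 2 of 30 months 9 of the 32 genes were called at 30 months.

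In the list of oncostatin M and STAT3 signalling, 22 of 25 genes were tested, 6 rose at 30 months and 0 fell, with a median of 0.17. Of all genes 3.23% were called higher. In the list 7 of the 22 differences were negative, the lowest for Junb (-0.84 ± 0.30) and Pim1 (-0.61 ± 0.22), neither called. An unadjusted p under 0.05 in limma-trend was found for 12 of the 22, 9 of them higher and 3 lower. The 6 became 3 without replicate 3 or 4 of 6 months, without replicate 2 or 3 of 30 months, under limma-voom and with no filter on low values. The phosphatase gene Ptpn6 was at 50.4 ± 8.52 normalised reads at 6 months and 103 ± 21.3 at 30 (log2 fold change 1.02 ± 0.19, adjusted p = 0.00274), and Stat3 itself at 869 ± 91.4 normalised reads at 6 months and 1088 ± 72.3 at 30 (log2 fold change 0.33 ± 0.072, adjusted p = 0.00835). Cebpd, Bcl3 and Icam1 rose too. The subunit Il6st, which pairs with the oncostatin M receptor, differed by 0.077 ± 0.051 (adjusted p = 0.420), the feedback inhibitor Socs3 by 0.52 ± 0.23 (adjusted p = 0.193) and the ligand receptor Lifr by 0.24 ± 0.093 (adjusted p = 0.136). The ligand gene Osm was under the filter, as were Il6 and Il11.

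Homeostatic astrocyte genes outside the members mostly did not pass. Of 28 such genes 0 rose and 4 fell at 30 months, with a median of -0.026, and 2 fell without replicate 2 of 6 months. Of all genes 3.97% were called lower. An unadjusted p under 0.05 in limma-trend was found for 9 of the 28, 2 of them higher and 7 lower. Slc7a10, an amino acid exchanger of astrocytes, fell to 396 ± 57.9 normalised reads from 535 ± 35.2 at 6 months (log2 fold change -0.44 ± 0.096, adjusted p = 0.00763). Mfge8, which encodes a phagocytosis bridging protein, fell as well (-0.36 ± 0.083, adjusted p = 0.0113), as did Gpr37l1, an astrocyte receptor (-0.21 ± 0.049, adjusted p = 0.0133), and Slc6a11, a GABA transporter (-0.23 ± 0.060, adjusted p = 0.0253). Of the 18 genes of glutamate uptake and the glutamine cycle, 0 passed in either direction under limma-trend and under edgeR's quasi-likelihood test, and 1 under DESeq2. 5 of the 18 had an unadjusted p under 0.05. Within the list, Glul, glutamine synthetase, was at 0.094 ± 0.042, and Slc1a1, the neuronal glutamate transporter, at 0.0048 ± 0.051. Of 18 genes of aquaporin 4 anchoring and gap junctions, 2 fell, beside 3.97% of all genes. With 1 library left out 0 to 2 did so (0 without replicate 2 of 6 months). In this list 6 of the 18 had an unadjusted p under 0.05, 3 of them higher and 3 lower. Kcnj10, the potassium channel of astrocyte endfeet, was at -0.077 ± 0.062, and Gjb6, the astrocyte connexin 30, at 0.10 ± 0.13.

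**Figure D4:**
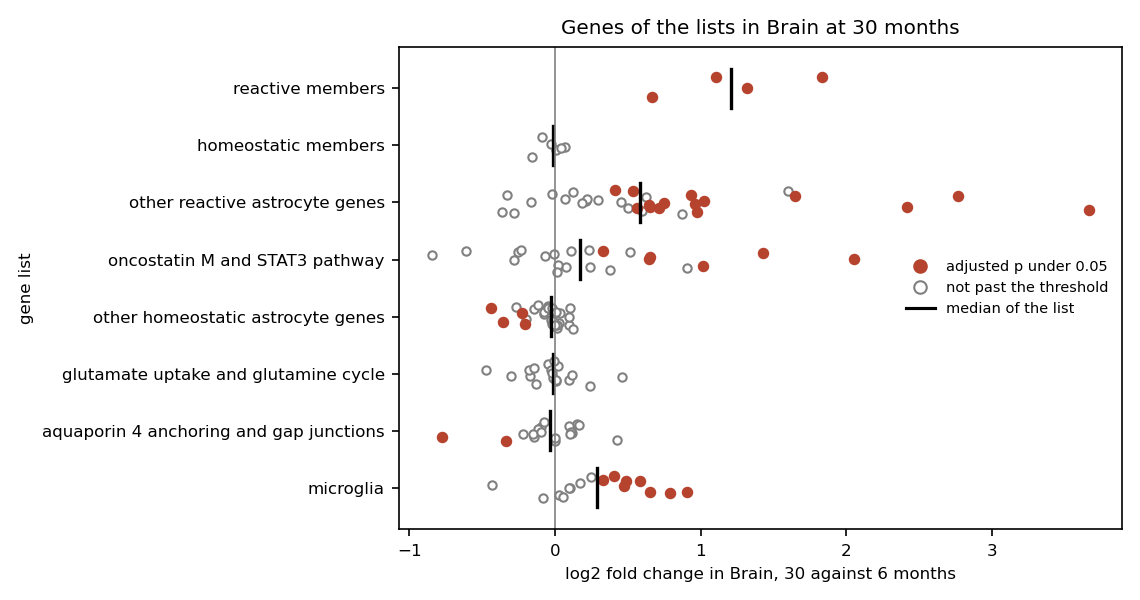
Log2 fold change in Brain at 30 against 6 months (x axis) of each tested gene of 8 lists (y axis, spread at random within a list); filled red points have an adjusted p under 0.05 and the black bar is the median of the list. The reactive lists reach to the right, up to 3.67 for Lcn2, and the homeostatic and glutamate lists lie around 0.

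Markers of other cell types were also compared between 30 and 6 months, and whether they varied with the reactive members was not tested. Of 16 microglia markers 8 rose at 30 months, among them Ctss, Trem2, Cd68, C1qa, C1qb, C1qc and Tyrobp, and 0 fell. Their summed level ran from 9229 to 9664 normalised reads at 6 months and from 10013 to 13214 at 30. Several genes of the reactive list, such as C3, H2-D1 and Cd44, are also expressed by microglia, and the microglial part in their change was not tested. Nor was it tested for the genes of the oncostatin M and STAT3 list. Each of the 13 other marker lists had at most 2 genes called. Mobp of oligodendrocytes and Ly6c1 of endothelial cells rose. Gpr17 and Neu4 of oligodendrocyte precursors, Tubb3 and Eno2 of neurons, Sox4 and Sox11 of neural progenitors, Col3a1 of meningeal fibroblasts and Nrgn of cortex and hippocampus fell. No marker list had a gene at 0 in every Brain library, and the 12 neuron markers summed to 167868 to 183739 in each library.

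Serpina3n, Osmr and Vim were then followed in the other 7 tissues at 30 against 6 months, each within its own table. Of the 21 comparisons 9 were called, all as higher, and 7 to 11 were called under the alternatives. Of all genes, 5.16% were called in Heart, 28.2% in Kidney, 23.8% in Liver, 13.1% in Muscle, 5.6% in Aorta, 19.4% in Lung and 0.723% in Skin. These shares set what a call means in each tissue, and they are large in Kidney, Liver and Lung. The share of all genes without overlap between the ages was counted in Brain alone. A lack of overlap in another tissue is therefore given below without such a share.

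Serpina3n rose in Heart, Kidney and Muscle. In Heart it went from 101, 118, 106 and 152 normalised reads to 666, 471, 705 and 455 (2.25 ± 0.19, adjusted p = 6.83e-06). In Kidney it went from 10.6, 5.02, 7.62 and 13.2 to 47.9, 45.8, 50.2 and 148 (2.75 ± 0.42, adjusted p = 2.38e-04). In Muscle it went from 83.2, 64.8, 66.2 and 134 to 198, 156, 206 and 257 (1.26 ± 0.23, adjusted p = 0.00308). In all 3 the 30-month libraries lay above all 6-month libraries, and Kidney replicate 4 of 30 months stood far above the other 3. In Liver, which secretes such inhibitors into blood, the values were 4498, 3901, 4909 and 4885 at 6 months and 6445, 7339, 8567 and 5488 at 30, without a call (0.60 ± 0.39, adjusted p = 0.290, but 0.0204 in a fit of the 2 ages alone). The differences were -0.36 ± 0.31 in Aorta, 0.087 ± 0.14 in Lung and -0.41 ± 0.36 in Skin, none of them called.

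Osmr rose in Kidney, from 143, 143, 171 and 218 to 359.9, 476, 465 and 432 normalised reads (1.37 ± 0.16, adjusted p = 3.24e-05). It rose in Liver by 0.95 ± 0.33 (adjusted p = 0.0491), from 43.1 to 77.5 to 82.2 to 168. In Muscle it rose by 0.58 ± 0.18 (adjusted p = 0.0423), from 229.7 to 272 to 275 to 442. Both of these calls are near the threshold: the Liver call was lost without any of 6 of its 8 libraries, and the Muscle call without any of 7 of its 8. The Liver call was also lost under edgeR with TMM and with RLE, voom, no filter on low values and a pseudocount of 5 (adjusted p = 0.0515 to 0.0789), and the Muscle call with no filter (adjusted p = 0.0628). The libraries in Liver were replicates 1, 2 and 3 of 6 months and 2, 3 and 4 of 30 months (0.76 to 1.02), and in Muscle every 6-month library and replicates 2, 3 and 4 of 30 months (0.49 to 0.64). In Heart the 30-month libraries (355 to 397) lay above the 6-month ones (239.6 to 313), with 0.47 ± 0.15 and an adjusted p of 0.0831. It passed under DESeq2 (adjusted p = 0.0309), voom (0.0124) and in a fit of the 2 ages alone (0.00374), and without replicate 4 of 24 months, the shallowest library (0.0168). The differences were 0.10 ± 0.17 in Aorta, -0.15 ± 0.089 in Lung and -0.0032 ± 0.20 in Skin, none called.

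Vim rose in Liver, from 286, 270.2, 249 and 312 to 668, 924, 1137 and 473 (1.45 ± 0.23, adjusted p = 7.33e-04). In Kidney it rose from 463, 505, 489.9 and 548 to 833, 929, 737 and 1329 (0.90 ± 0.14, adjusted p = 2.92e-04). In Heart it rose from 2295 to 2788 to 3459.8 to 4081 (0.50 ± 0.076, adjusted p = 0.00118). In each of the 3 the ages did not overlap. The differences were -0.22 ± 0.14 in Aorta, -0.11 ± 0.086 in Lung, -0.050 ± 0.11 in Muscle and 0.046 ± 0.24 in Skin, none called. All 3 genes were called in Brain and Kidney, 2 of the 3 in Heart, Liver and Muscle, and none in Aorta, Lung and Skin.

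**Figure D5:**
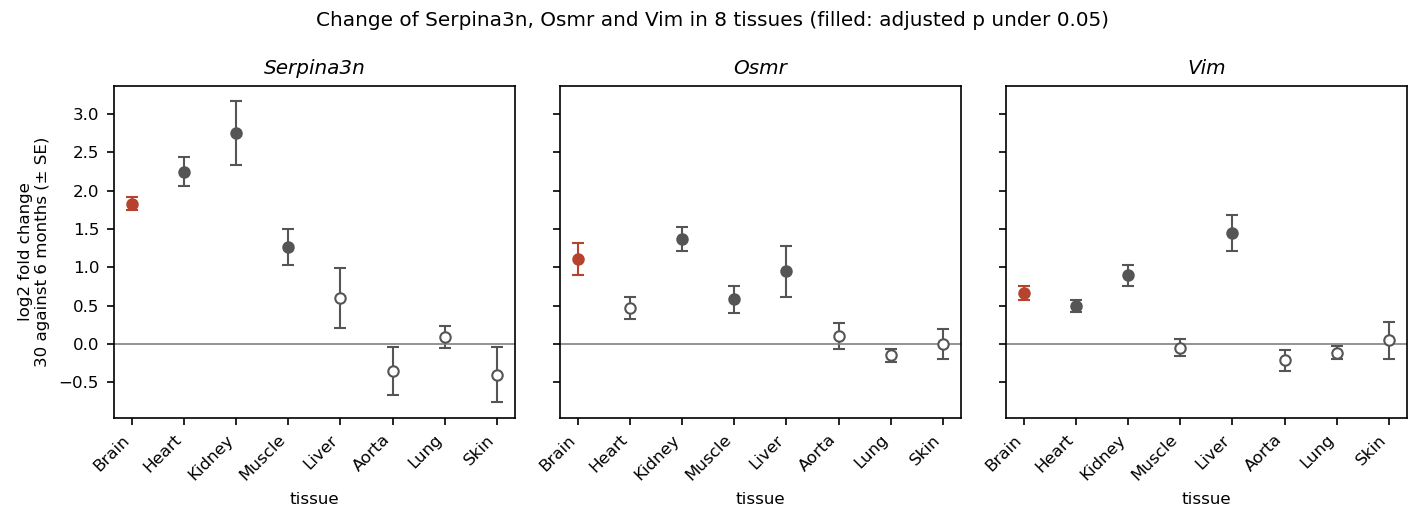
Log2 fold change at 30 against 6 months (y axis, ± SE, n = 4 libraries per age) of Serpina3n, Osmr and Vim in the 8 tissues (x axis, Brain in red); filled points have an adjusted p under 0.05 within their own table. Kidney stands above Brain in each panel, and Aorta, Lung and Skin have no filled point. The Brain change minus the Kidney change was -0.92 for Serpina3n, -0.26 for Osmr and -0.23 for Vim, none of them called.

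The other 7 members passed the filter on low values in 37 member-by-tissue comparisons outside Brain, and 7 of these were called. By tissue these were 2 of 5 in Kidney, 2 of 6 in Liver, 1 of 6 in Lung, 1 of 5 in Muscle, 1 of 4 in Aorta, 0 of 6 in Heart and 0 of 5 in Skin, beside the shares of all genes given above. Aqp4 fell in Liver (-2.17 ± 0.39, adjusted p = 0.00129), Muscle (-1.19 ± 0.31, adjusted p = 0.0209) and Kidney (-0.62 ± 0.12, adjusted p = 0.00126). Slc1a3 rose in Liver (2.67 ± 0.66) and Kidney (0.69 ± 0.17) and fell in Lung (-0.31 ± 0.082), while Aldh1l1 rose in Aorta (0.52 ± 0.13). Gfap was tested outside Brain in Liver alone, where the difference was 0.74 ± 0.56 (adjusted p = 0.369).

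The Brain change minus the change in another tissue was tested itself, in a fit of the libraries of all 8 tissues over 21683 genes. An F test found that the change at 30 months differed among the 8 tissues for Serpina3n (adjusted p = 1.21e-10), Vim (1.09e-09) and Osmr (2.94e-05), as for 31.9% of genes. Of 21 differences from Brain 8 were called. For Serpina3n the Brain change was larger than in Skin by 2.24 ± 0.45 (adjusted p = 6.34e-04), in Aorta by 2.19 ± 0.45 (adjusted p = 0.00134) and in Lung by 1.74 ± 0.45 (adjusted p = 0.0265). These 3 differences were called in 2.78%, 3.03% and 1.13% of all genes. Against Heart, Kidney and Muscle the differences were -0.42 ± 0.45, -0.92 ± 0.45 and 0.57 ± 0.45, none called, and against Liver 1.23 ± 0.45 (adjusted p = 0.0566). Here 0.452% (Heart), 3.01% (Kidney), 1.43% (Muscle) and 12.5% (Liver) of all genes were called. This fit takes the spread of a gene over all 8 tissues together, so the SE for Serpina3n was 0.45 against every tissue. Within its own tissue the SE of the Serpina3n change ran from 0.085 in Brain to 0.42 in Kidney, with 0.14 in Lung. The Lung difference was not called without Brain replicate 2 of 6 months (1.68) or replicate 2 of 30 months (1.67). It was called under all 4 alternatives that left out no single library, a fit of Brain and Lung alone among them (adjusted p = 1.97e-07 to 0.0232).

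For Osmr the Brain change exceeded that in Lung by 1.26 ± 0.30 (adjusted p = 0.0135), in Skin by 1.11 ± 0.30 (adjusted p = 0.0219) and in Aorta by 1.004 ± 0.30 (adjusted p = 0.0449). All 3 calls were lost without Brain replicate 1 of 6 months, at 1.02, 0.87 and 0.76, and the Aorta call also without Brain replicate 2, 3 or 4 of 30 months (0.97, 0.96 and 1.02). For Vim the Brain change was larger than in Aorta by 0.88 ± 0.23 (adjusted p = 0.0172) and smaller than in Liver, by -0.78 ± 0.23 (adjusted p = 0.0128). In a fit of Brain and Liver alone the Vim difference had an adjusted p of 0.0528. The Osmr difference from Skin was likewise lost in a fit of those 2 tissues alone (adjusted p = 0.0537). All 8 differences were also called by edgeR's quasi-likelihood test. Not called in the fit of all tissues, but past the threshold elsewhere, were Serpina3n minus Liver under edgeR (adjusted p = 0.0427) and a pseudocount of 5 (0.0472), Vim minus Lung with a pseudocount of 5 (0.0446) and with those 2 tissues alone (3.41e-04), and Vim minus Muscle with those 2 tissues alone (0.00494).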

How the data were processed

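Per the labels' protocols, RNA was isolated by RNAiso Plus and libraries were made by the Illumina Stranded mRNA Prep. The submitters' processing notes name FastQC, STAR, RSEM, DESeq2 and GRCm39, with no tool version. For the annotation nothing is given in the sources used here. The signal values, called normalised reads here, come from a table for each tissue that the authors deposited and scaled separately. In every library 100% of values are whole reads within 0.01 once multiplied by 1 factor. Recovered depth was 10.1 to 36.0 M reads in Brain and 7.65 to 82.8 M in the libraries of all tissues.

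The design named edgeR for counts and limma-trend for normalised values. The deposited values are normalised, so limma 3.58.1 was used in R 4.3.3, on log2(value + 1), with 1 mean per age over 16 libraries. The filter on low values was filterByExpr (edgeR 4.0.16, minimum count 10), and p-values were adjusted within each tissue. Differences between tissues used 1 fit over the libraries of all 8 tissues. On simulated data that test made more false calls than its nominal rate, so edgeR's call is given beside it. Ratios used an exact permutation test.

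The members and lists were chosen with earlier results of these data known. From each list the 3 genes with the smallest adjusted p at 30 months in each direction were named with values; some of them are not reported here, and others named in the text were added after their values were seen. Likeness took the 5 highest correlations, leaving out Gm and Rik symbols. Alternatives were edgeR's quasi-likelihood test (TMM, RLE) and DESeq2 1.42.0 on the recovered reads, voom with quality weights, no filter, a fit of the compared ages alone, a replicate block, pseudocounts (0.1 and 5), TMM scaling and each library left out. Chosen after seeing the data were leaving out Heart replicate 4 of 24 months, or Kidney replicates 3 and 4 of 30 months, and the alternatives for list counts and for steps between neighbouring ages. Among Brain libraries of the same age no library was a copy of another, and other pairs were not checked. Tables were handled with the R package data.table (version 1.17.8), pandas 2.3.3 and numpy 2.4.6 in Python 3.11.15, and figures drawn with matplotlib 3.10.9.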

Additional observations from a re-analysis of the deposited data

Results flagged for a closer look

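In 6 groups of 4 libraries 1 library stood far from the other 3 for a gene described here, by a gap to its nearest neighbour that takes up most of the group's range (Dixon's criterion). This was so in 2 of 40 Brain groups and 4 of 84 groups in other tissues, where chance gives about 1 in 20. In Brain they were Osmr at 6 months in replicate 1 (47.2 normalised reads against 88.8 to 94.7) and Aldh1l1 at 30 months in replicate 4 (895 against 969.5 to 985). In Aorta, Serpina3n stood apart at 6 months in replicate 3 (632) and at 15 months in replicate 4 (788). Serpina3n in Kidney at 30 months stood apart in replicate 4 (148), where the gene rose by 2.35 without it, and Osmr in Liver at 15 months in replicate 3 (275).

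The change from 6 to 30 months differed between Brain and another tissue in 8 of 21 tests. Brain minus Aorta was 2.19 for Serpina3n, 1.004 for Osmr and 0.88 for Vim. Brain minus Lung was 1.74 for Serpina3n and 1.26 for Osmr. Brain minus Skin was 2.24 for Serpina3n and 1.11 for Osmr. Brain minus Liver was -0.78 for Vim. The 3 Osmr values fell under the threshold without Brain replicate 1 of 6 months, as the report gives.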

How the results depend on the processing

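The members called in Brain at 24 months (3) and at 30 months (4) were the same in number under all alternatives run, each library left out in turn included. At 15 months 1 member, Gfap, was called by DESeq2, with the replicate number as a block and without replicate 2 of 15 months, so the leave-one-out range was 0 to 1. From 24 to 30 months it was 1 to 2, and 1 member with those ages alone.

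Over all Brain genes, 15 months gave 2 calls with edgeR TMM, 2 with RLE, 34 with DESeq2, 1 with no filter, 2 with those ages alone and 11 with the replicate block, and 1 to 7 with a library left out. At 24 months it was 107 in the main test, 184 with DESeq2 and 57 to 101 with a library left out. At 30 months it was 730 with those ages alone and 807 to 1136 with a library left out, against 1215. edgeR on the recovered reads called 1279 genes. The fits with a library left out or of the compared ages alone also rest on fewer libraries, and the cause of these shifts was not tested. Of the 8 differences between Brain and other tissues 5 to 8 were called with a Brain library left out.

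The replicate numbers showed no strong pairing of the Brain libraries, and weak pairing was not tested. Deviations of same-numbered libraries correlated at -0.105 to 0.120 in 24 pairs (median 0.043, 2 over 0.1). Those of different numbers correlated at -0.136 to 0.163 in 72 pairs (median -0.0092, 1 over 0.1). With the replicate block the ratios to Aldh1l1 were 1.40, 1.92, 0.75 and 1.19, at a sign-flip p of 0.125, the smallest 4 pairs allow.

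Directions turned only for values near 0 that were not called. Under voom these were Aqp4 in Brain at 24 months (-0.021), Serpina3n in Lung (-0.028), Vim in Muscle (0.040) and Osmr in Skin (0.022), the last also under TMM scaling (0.0077). Vim in Skin turned under edgeR TMM (-0.0027), RLE (-0.00996), DESeq2 (-0.00997) and voom (-0.048). With a library left out the ranges spanned 0 for S100b (-0.070 to 0.013), Aldh1l1 (-0.00029 to 0.047) and Slc1a2 (-0.049 to 0.0033) at 15 months, Aqp4 (-0.052 to 0.074) and Slc1a2 (-0.025 to 0.027) at 24 and Aqp4 (-0.069 to 0.15) at 30. They did so too for Osmr in Aorta (-0.019 to 0.26), Vim in Muscle (-0.12 to 0.053), Osmr (-0.13 to 0.067) and Vim (-0.16 to 0.22) in Skin and Osmr Brain minus Liver (-0.082 to 0.25). Osmr had the lowest counts of the members in Brain, from 47.2 normalised reads.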
